A study of Mus musculus with 10 samples.

Results

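The adrenergic receptors and the other G protein-coupled receptors of thermogenesis were followed in interscapular brown adipose tissue (iBAT) of mice lacking the long non-coding RNA Gm15551. The set held 9 of the 54347 gene records of the count table, namely Adrb1, Adrb3, Adra1a, Adra1d, Adra2a, Gpr3, Ffar4, Adora1 and Adora2a. The genes were chosen by their symbols and with their values in the genotype comparison already known, Adrb3 having been noted as higher in knockout tissue. Their genotype differences are therefore given as a description, with no p-value, and nothing is read from whether an interval holds 0. Poly A RNA was sequenced from 5 ΔGm15551 mice, which are homozygous for a CRISPR/Cas9 deletion at exon 1 of Gm15551 on a C57BL/6N background, and from 5 wild type littermates. All 10 mice were 12 weeks old and had been housed alone at 4 °C for 24 h, so that no tissue of warm-housed mice enters any comparison.

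Noradrenaline released by sympathetic nerves drives heat production in brown adipocytes. Receptors coupled to the G protein Gs, such as the β-adrenoceptors, raise cyclic AMP and with it lipolysis and the transcription of Ucp1, the uncoupling protein of brown fat mitochondria. Receptors coupled to Gi, such as the α2-adrenoceptors and the adenosine A1 receptor, lower cyclic AMP, and the α1-adrenoceptors act through Gq and calcium.

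Between 9680976 and 15771170 counts were assigned per library. Gm15551 had 0 counts in all 5 ΔGm15551 libraries and 0, 1, 2, 6 and 7 counts in the wild type libraries, with 0 in replicate 7, which is a thin check of the genotype labels. Of the 8 brown adipocyte markers all were measured, and their summed CPM (counts relative to library size, scaled by the TMM method of edgeR) ran from 11276 to 15399 in ΔGm15551 and from 11326 to 14178 in wild type tissue. The sum of 10 skeletal muscle genes stood at 727 CPM in ΔGm15551 replicate 1, at 1563 CPM in ΔGm15551 replicate 4 and at 2628 CPM in wild type replicate 7, against 1.13 to 230 CPM in the other 7 mice. The 5 lymphocyte markers together reached at most 2.68 CPM. No marker gene was called between genotypes by edgeR, beside 0.00% of all genes tested. The 2 with an unadjusted p under 0.05 were the white adipocyte marker Lep and the preadipocyte marker Pi16. Lep was 1 of 3 tested genes of its list and Pi16 was 1 of 4, and 1.59% of all genes had such a p. Lep had a log2 fold change of -1.14 (edgeR unadjusted p = 0.00315, adjusted p = 0.99974) and Pi16 one of 0.81 (edgeR unadjusted p = 0.012, adjusted p = 0.99974). Their part in the receptor values was not tested.

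Sequences upstream of the transcription start were at hand for 5 of the 9 genes (RefSeq, build GRCm38.p6). Those of 4 genes are shown because they span the range of levels described below, from Ffar4 among the most abundant receptor mRNAs to Gpr3, the least abundant with a testable level. Each line gives the 250 bases before the start, 5′ to 3′ on the strand of the gene. Capitals mark the half-site of the cyclic AMP response element, TGACG or its reverse complement CGTCA.
Gpr3, chr4:133212537-133212786, minus strand: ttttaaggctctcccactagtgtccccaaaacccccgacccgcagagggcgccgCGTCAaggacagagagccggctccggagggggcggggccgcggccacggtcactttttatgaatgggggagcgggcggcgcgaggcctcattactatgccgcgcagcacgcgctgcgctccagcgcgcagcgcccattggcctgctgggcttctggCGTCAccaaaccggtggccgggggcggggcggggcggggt
Adrb1, chr19:56721867-56722116, plus strand: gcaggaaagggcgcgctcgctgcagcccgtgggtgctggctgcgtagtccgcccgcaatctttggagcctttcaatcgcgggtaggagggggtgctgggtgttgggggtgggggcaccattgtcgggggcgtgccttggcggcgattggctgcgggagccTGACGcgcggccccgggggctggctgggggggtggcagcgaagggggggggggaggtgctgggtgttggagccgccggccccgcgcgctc
Adora1, chr1:134235458-134235707, minus strand: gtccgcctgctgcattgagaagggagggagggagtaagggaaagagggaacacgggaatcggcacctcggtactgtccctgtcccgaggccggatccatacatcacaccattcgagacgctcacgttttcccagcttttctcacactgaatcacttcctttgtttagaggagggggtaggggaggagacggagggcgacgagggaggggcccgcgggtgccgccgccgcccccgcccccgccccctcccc
Ffar4, chr19:38096829-38097078, plus strand: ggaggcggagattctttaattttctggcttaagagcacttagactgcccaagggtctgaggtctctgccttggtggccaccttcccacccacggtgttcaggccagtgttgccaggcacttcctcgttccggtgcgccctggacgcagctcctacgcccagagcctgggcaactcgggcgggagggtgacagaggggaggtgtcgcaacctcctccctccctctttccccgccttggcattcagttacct
The window of Gpr3 held 2 half-sites, beginning 196 and 40 bases before the start, and that of Adrb1 held 1, beginning 90 bases before it. The windows of Adora1 and Ffar4 held none. Distances count from the RefSeq start. That of Adrb1 (56722117) and that shown for Adora1 (134235457) lie upstream of the GENCODE gene starts (56722199 and 134235431). For both, the bases checked after the start were in no GENCODE transcript of the gene. A second start of Adora1 (window chr1:134234857-134235106) had neither a half-site nor a GC box, and the window of Adra2a, not shown, held 1 of each. On either strand, the 5 letters were found in 17.9% of 32536 mouse windows of the same length, and a match describes letters, not binding. The GC box GGGCGG, which overlaps no half-site here, occurred 5 times in the window of Gpr3, 3 times in that shown for Adora1 and once each in those of Adrb1 and Ffar4, with 33% of all windows holding it. GC made up 70.8% of the Gpr3 window, 74% of the Adrb1 window, 64.4% of the Adora1 window and 61.2% of the Ffar4 window.

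Adrb3, the β3-adrenoceptor and the main adrenergic receptor of rodent brown adipocytes, was the most abundant of the 9 genes by read count, with 1261 to 3047 counts per library. It lies on the minus strand of chromosome 8 at positions 27225776 to 27250616 (GRCm38). ΔGm15551 replicates 1, 2, 4, 5 and 7 held 167.6, 158.0, 216.9, 233.1 and 213.2 CPM of Adrb3. Wild type replicates 2, 3, 5, 6 and 7 held 122.7, 156.8, 156.8, 132.5 and 129.2 CPM. All 5 ΔGm15551 mice thus lay above all 5 wild type mice, although only about 1 CPM separated ΔGm15551 replicate 2 from wild type replicates 3 and 5. Of the 13732 genes tested, 31 (0.226%) had every ΔGm15551 mouse above every wild type mouse, and as Adrb3 was picked as higher in knockout, nothing is read from its place among them. The mean was 198 CPM ± 33 (SD, n = 5) for ΔGm15551 mice and 140 CPM ± 16.1 (SD, n = 5) for their littermates. The log2 fold change of ΔGm15551 over wild type was 0.50 (SE 0.14, 95% interval 0.21 to 0.79), and it was 0.50 without the 3 muscle-rich mice and 0.50 without the 3 wild type mice of a higher series of mouse numbers.

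The exons of Adrb3 share 839 bases with Gm45470, a non-coding gene annotated on the opposite strand. The strand setting of the counting was not given in the sources used here, so reads over those bases could belong to either gene. Gm45470 itself held 21.9 to 37 CPM in ΔGm15551 mice and 20.5 to 34.1 CPM in their littermates, a log2 fold change of 0.21 (SE 0.16). With both genes summed, ΔGm15551 replicate 2 stood at 180 CPM and wild type replicates 3 and 5 stood at 191 and 187 CPM, so the groups overlapped, and the log2 ratio of the group means was 0.46.

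Adrb1 encodes the β1-adrenoceptor, a second Gs-coupled receptor for noradrenaline. Its ΔGm15551 values, in the same order of mice, were 30.2, 41.3, 34.7, 22.2 and 44 CPM. Its wild type values were 29.4, 41.4, 40, 45.5 and 29.6 CPM. The groups overlapped, with the lowest value in ΔGm15551 replicate 5, and the log2 fold change was -0.11 (SE 0.19), or 0.01 without that mouse.

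The α1-adrenoceptor genes Adra1a and Adra1d were both expressed. Adra1a stood at 40, 83.2, 65.9, 50.3 and 68.2 CPM in ΔGm15551 mice and at 61.9, 59.6, 56, 57.3 and 44.5 CPM in their wild type littermates. The ΔGm15551 mice both included the highest and the lowest value and spread more widely, with a coefficient of variation of 27.2% against 12.1%. Adra1d stood at 4.54, 13.6, 9.2, 7.04 and 5.8 CPM in ΔGm15551 mice and at 5.98, 7.95, 8.56, 9.48 and 3.48 CPM in their wild type littermates. The groups overlapped for both genes, and the log2 fold changes were 0.14 (SE 0.17) for Adra1a and 0.17 (SE 0.30) for Adra1d. Without ΔGm15551 replicate 2 they were 0.01 and -0.10, and without wild type replicate 7 they were 0.07 and 0.00. ΔGm15551 replicate 1 and wild type replicate 7 were the lowest mice of their groups for both.

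Adra2a, the Gi-coupled α2A-adrenoceptor, was close to the limit of detection. It had 4, 0, 1, 1 and 4 counts in ΔGm15551 and 4, 1, 5, 6 and 0 counts in wild type mice, and it was the 1 gene of the 9 that fell under the filter on low counts. Pooled, this came to 0.148 CPM in ΔGm15551 (exact Poisson 95% interval 0.0709 to 0.272) and 0.257 CPM in wild type tissue (0.147 to 0.417). These intervals overlap and cover counting error only. In the 2 libraries with 0 counts, a level of up to 0.216 CPM in ΔGm15551 replicate 2 and 0.31 CPM in wild type replicate 7 would have gone unseen, taking 3 counts as the limit.

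Gpr3, an orphan receptor that activates Gs without a ligand and is known as a cold-induced gene of brown fat, was low in these cold-exposed mice, with 5 to 24 counts per library. Its level was 0.439, 1.13, 1.19, 1.61 and 0.372 CPM in ΔGm15551 and 1.16, 2.05, 1.71, 0.909 and 0.512 CPM in wild type mice. The groups overlapped, and the log2 fold change of -0.43 had a wide 95% interval of -1.38 to 0.52. It was -0.20 without wild type replicate 3, -0.23 without ΔGm15551 replicate 7, -0.25 without ΔGm15551 replicate 1 and -0.70 without ΔGm15551 replicate 5. Exons of Gpr3 share 204 bases with Cd164l2 on the other strand, which had 13 to 48 counts, so that the origin of so few reads is uncertain.

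Ffar4 encodes GPR120, a receptor for long-chain fatty acids. In ΔGm15551 mice it stood at 93.2, 65.8, 59.8, 62.2 and 115 CPM, and in wild type mice at 62.4, 61.8, 67.1, 61.7 and 64.8 CPM. The wild type mice lay close together, with a coefficient of variation of 3.69%, the smallest of the 9 genes, whereas ΔGm15551 replicates 1 and 7 lay above every wild type mouse. The other 3 ΔGm15551 mice lay in or near the wild type range, and the log2 fold change was 0.32 (SE 0.17, 95% interval -0.05 to 0.69). Without ΔGm15551 replicate 7 it was 0.14.

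The adenosine receptors were represented by Adora1, whose Gi-coupled product restrains lipolysis, and by the Gs-coupled Adora2a. Adora1 stood at 61.6, 113, 99, 111 and 99 CPM in ΔGm15551 mice and at 107, 98.7, 112, 117 and 86.1 CPM in their wild type littermates. ΔGm15551 replicate 1 was far below the other mice of its group, and the log2 fold change was -0.10 (SE 0.16), or 0.02 without that mouse. The exons of Adora1 share 1162 bases with Mybph, a muscle gene on the other strand with 0 to 36 counts. Adora2a stood at 38.9, 24.8, 21.2, 35.9 and 23.8 CPM in ΔGm15551 mice and at 24.7, 15.5, 19.7, 18.8 and 45.3 CPM in their wild type littermates. Its highest value was in a wild type mouse, replicate 7, and the log2 fold change of 0.23 (SE 0.27) was 0.56 without that mouse and 0.10 without ΔGm15551 replicate 1. Adora2b had at most 2 counts and Adora3 at most 4 counts in any library.

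**Figure D1:**
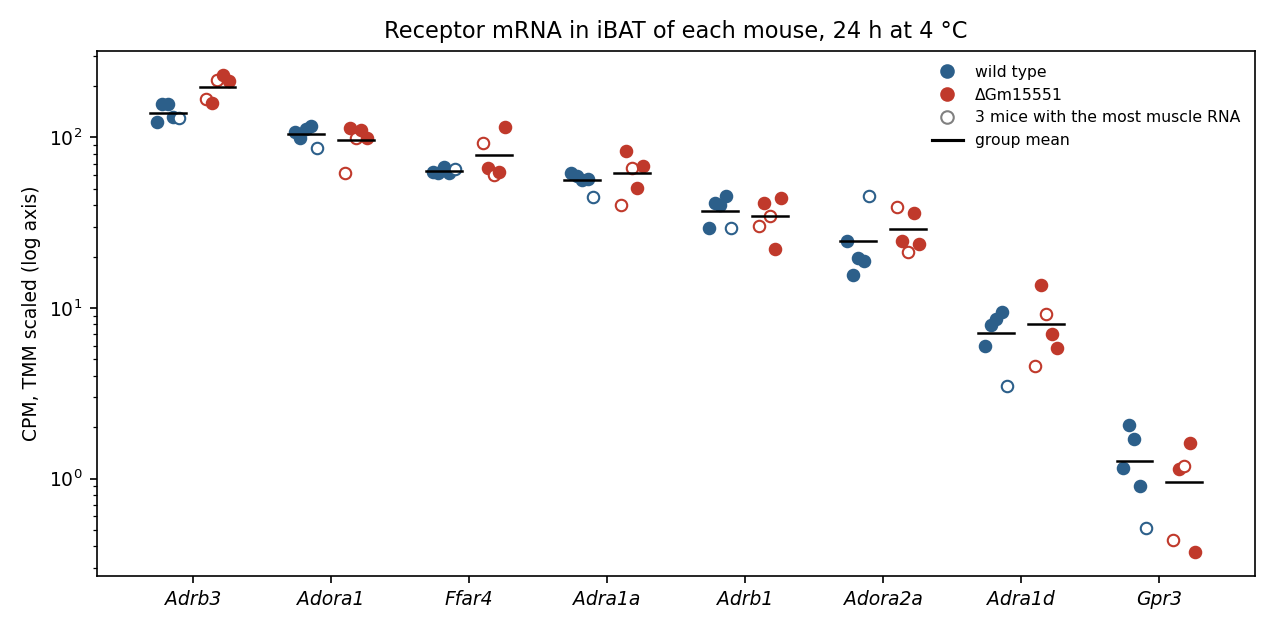
Level of 8 receptor genes in each mouse (y axis, TMM-scaled CPM on a log axis) for wild type and ΔGm15551 mice, 5 each, with the group mean as a bar and the 3 mice richest in muscle RNA as open circles. The ΔGm15551 mice sit above the wild type mice for Adrb3 (158 to 233 against 123 to 157 CPM), which was picked as higher in knockout and shares this with 0.226% of all genes tested, and the groups overlap for the other 7 genes.

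Across these genes the median log2 fold change was 0.16, beside -0.001 over all 13732 genes tested. Of the 8 members that passed the filter, 0 were called at an adjusted p under 0.05 by edgeR's quasi-likelihood test, and 0.00% of all genes were. As the members were chosen on this contrast, nothing is read from that count. The 5th to 95th percentile of all genes ran from -0.308 to 0.288.

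**Figure D2:**
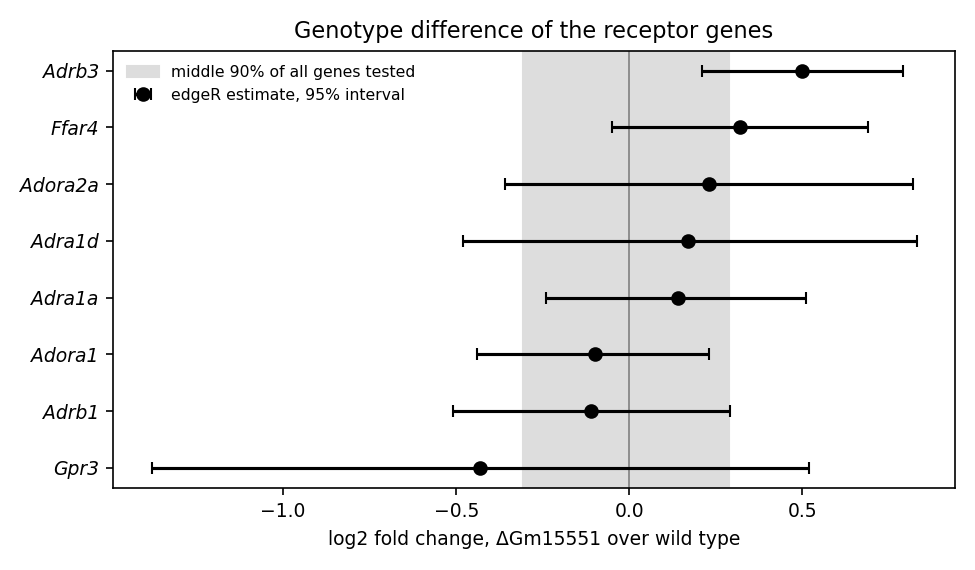
Log2 fold change of ΔGm15551 over wild type (x axis) for the 8 receptor genes that passed the filter, as edgeR estimates with 95% intervals, over a grey band for the middle 90% of all genes tested. Adrb3 (0.50) and Ffar4 (0.32, or 0.14 without ΔGm15551 replicate 7) lie to the right of the band and Gpr3 (-0.43, or -0.20 without wild type replicate 3) lies to its left with the widest interval.

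The levels of the members were compared with each other per kilobase of merged exons. Ffar4 (51 CPM per kb ± 13, SD over 10 mice) and Adrb3 (50 ± 11.6) were at the top, above 94.3% and 94.2% of all genes tested. Adora1 (17.3 ± 2.83), Adrb1 (10.6 ± 2.28), Adora2a (8.77 ± 3.19), Adra1a (6.72 ± 1.42), Adra1d (3.98 ± 1.53) and Gpr3 (0.405 ± 0.207) followed. For scale, Ucp1 reached 5299 CPM per kb ± 1013. In an exact sign-flip test over the 10 mice (two-sided, adjusted over 7 neighbouring pairs), 4 steps of this order differed, each in the same direction in 10 of 10 mice and with an adjusted p of 0.00342. These were Adrb3 over Adora1 (1.51 on the log2 scale), Adora1 over Adrb1 (0.72), Adra1a over Adra1d (0.82) and Adra1d over Gpr3 (3.41). The differences of Ffar4 and Adrb3 (0.03, exact adjusted p = 0.809), of Adrb1 and Adora2a (0.32, exact adjusted p = 0.262) and of Adora2a and Adra1a (0.33, exact adjusted p = 0.262) were within the spread between mice.

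The length used moved part of this order. Per kilobase of coding sequence, the log2 difference of Ffar4 and Adrb3 was -1.08 (exact p = 0.00195) and that of Adora2a and Adra1a was -0.99 (exact p = 0.00977), so that Adrb3 and Adra1a were the higher of each pair. Adora1 (103 CPM per kb) then also lay above Ffar4 (65.9), and Adra1a lay above Adrb1 both per coding sequence (42 against 25.6) and per longest coding transcript (13.7 against 12.1). The 4 steps that differed with merged exons kept their direction under the other 2 lengths, each with an exact p of 0.00195 except Adrb3 over Adora1 per coding sequence (0.43, exact p = 0.0117).

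**Figure D3:**
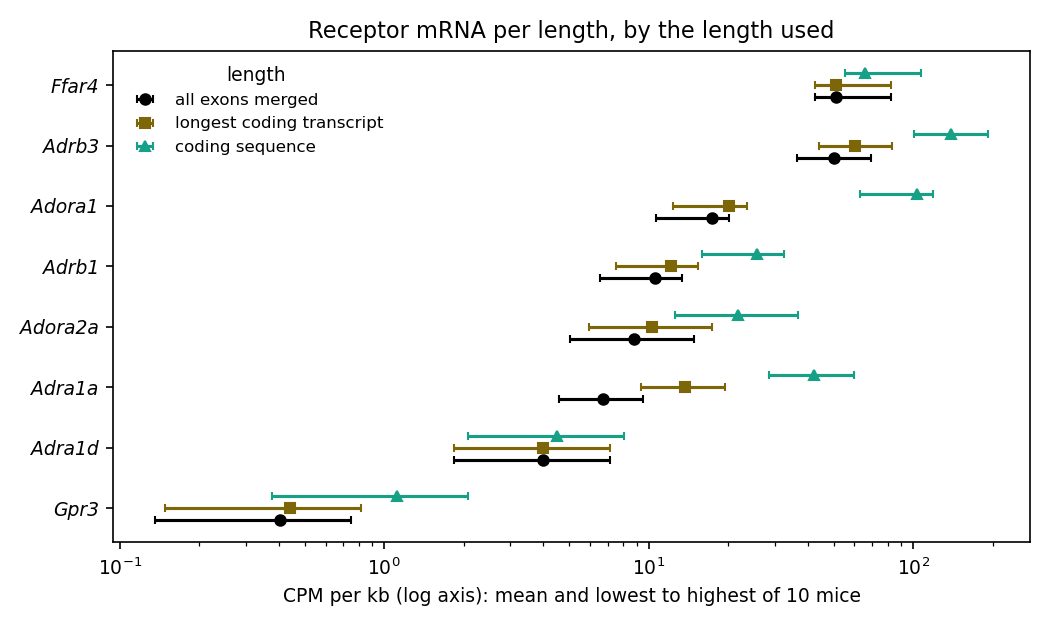
Level per kilobase (x axis, CPM per kb on a log axis) of 8 receptor genes, with the mean as a symbol and a bar from the lowest to the highest of 10 mice, for 3 choices of gene length. Gpr3 lies lowest under each length, while Adra1a moves from 6.72 with merged exons to 42 with the coding sequence.

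The receptors were then compared across mice after subtracting each genotype's mean, which removes the genotype difference. Of 28 pairs of the 8 genes, 0 reached an adjusted p under 0.05 in an exact permutation test over all arrangements of the mice within genotypes, and 8 had an unadjusted p under 0.05. The Pearson r of Adra1a with Adra1d was 0.75 (exact p = 0.0174, adjusted p = 0.0976), that of Adra1d with Adora1 was 0.74 (exact p = 0.0153, adjusted p = 0.0976), and that of Adra1a with Adora1 was 0.75 (exact p = 0.0369, adjusted p = 0.148). Adora2a ran the other way, with r of -0.77 with Adra1d (exact p = 0.0168), -0.72 with Adrb1 (exact p = 0.0145) and -0.71 with Adra1a (exact p = 0.0152), each with an adjusted p of 0.0976. The other 2 were Gpr3 with Ffar4, with r = -0.72 (exact p = 0.0321, adjusted p = 0.148) and -0.78 without ΔGm15551 replicate 1 and wild type replicate 7, and Adra1d with Gpr3, with r = 0.68 (exact p = 0.0498, adjusted p = 0.174) and 0.35 without those mice. Spearman's rho for the 8 pairs lay between -0.64 and 0.75. Without the 2 mice farthest from the median, the r of Adra1a with Adora1 was 0.25, that of Adra1a with Adra1d 0.51, that of Adra1d with Adora1 0.47 and that of Adra1d with Adora2a -0.37, so these rest on few mice, whereas Adra1a with Adora2a stood at -0.83 and Adrb1 with Adora2a stood at -0.81. Without ΔGm15551 replicate 1 and wild type replicate 7 these last r were -0.49 and -0.80. Without ΔGm15551 replicate 1 and wild type replicate 7, 0 of the 28 pairs had an unadjusted p under 0.05. Adrb3 had an r between -0.34 and 0.45 with the 7 other genes. Against 13087 genes averaging 1 CPM or more, the 5th to 95th percentile of r was -0.82 to 0.85 for Adra1d. It was -0.80 to 0.82 for Adra1a, -0.73 to 0.79 for Adora1, -0.78 to 0.79 for Adrb1 and -0.90 to 0.87 for Adora2a. The r given above for pairs among these genes lay within those ranges. For Gpr3 the range was -0.63 to 0.65 and for Ffar4 -0.52 to 0.50.

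**Figure D4:**
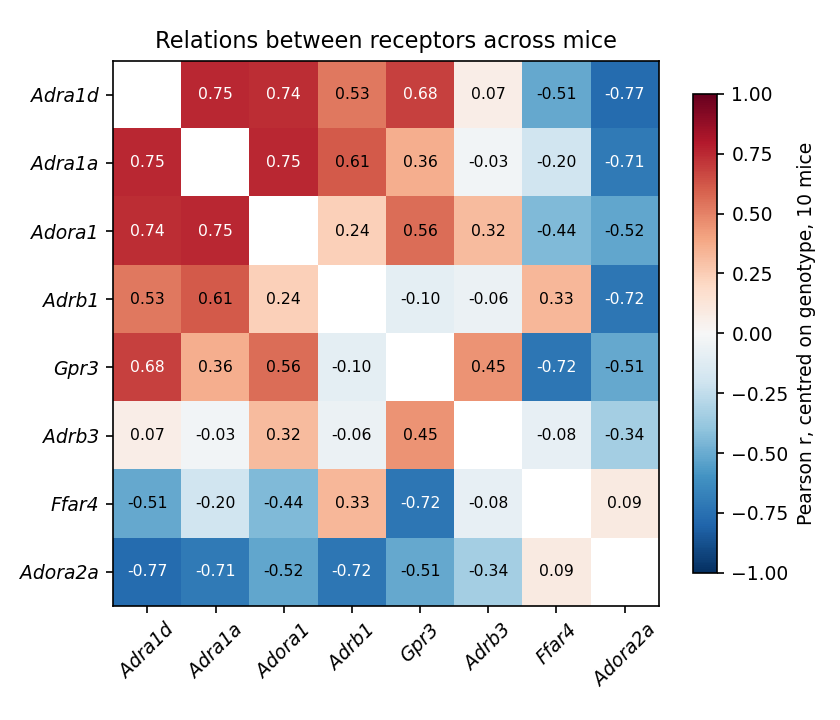
Pearson r between receptor genes across 10 mice on log2 CPM centred on each genotype's mean, from -1 in blue to 1 in red. Adra1d, Adra1a and Adora1 form a red block (0.74 to 0.75) and Adora2a is blue against Adra1d (-0.77), Adrb1 (-0.72) and Adra1a (-0.71), though no pair passed the adjusted threshold and the block stood at -0.10 to 0.47 without ΔGm15551 replicate 1 and wild type replicate 7. These r lie within the 5th to 95th percentile of each gene's r with 13087 genes (for Adra1d, -0.82 to 0.85).

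In whole tissue, fewer cells of a type and less RNA per cell cannot be told apart, and the members were therefore set beside marker lists of the cell types the tissue can hold. This comparison was added after the values had been seen and covers 56 relations of 8 genes with 7 lists, of which 1 passed at an adjusted p under 0.05. The skeletal muscle list was left out because 3 mice stand apart on it, and the lymphocyte list because none of its genes passed the filter. Adra1d was lower in the mice where the 6 endothelial genes were higher, with r = -0.92 and rho = -0.94 (exact permutation p = 0.000833, adjusted p = 0.0467), and r was -0.81 without the 2 mice farthest from the median. The r of Adora2a with the same 6 genes did not pass, at r = 0.87 and rho = 0.71 (exact permutation p = 0.00354, adjusted p = 0.0632), and r was 0.74 without those 2 mice. Adra1a had r = -0.83 with that list (exact permutation p = 0.00451, adjusted p = 0.0632) and -0.89 with 5 Schwann cell genes (exact permutation p = 0.00215, adjusted p = 0.0603). Without the 2 mice farthest from the median of each list, these r of Adra1a were -0.62 and -0.81. Against 13087 single genes averaging 1 CPM or more, the 5th to 95th percentile of r was -0.82 to 0.85 for Adra1d. It was -0.90 to 0.87 for Adora2a and -0.80 to 0.82 for Adra1a. The endothelial r of Adora2a and Adra1a lay near these limits, so nothing particular to endothelium is read from them. The endothelial genes summed to 807 to 1370 CPM in ΔGm15551 mice and 764 to 1271 CPM in their littermates, none was at 0, and the highest mouse of each group was ΔGm15551 replicate 1 and wild type replicate 7, which were also muscle-rich. The part of cell composition in these relations was not tested.

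**Figure D5:**
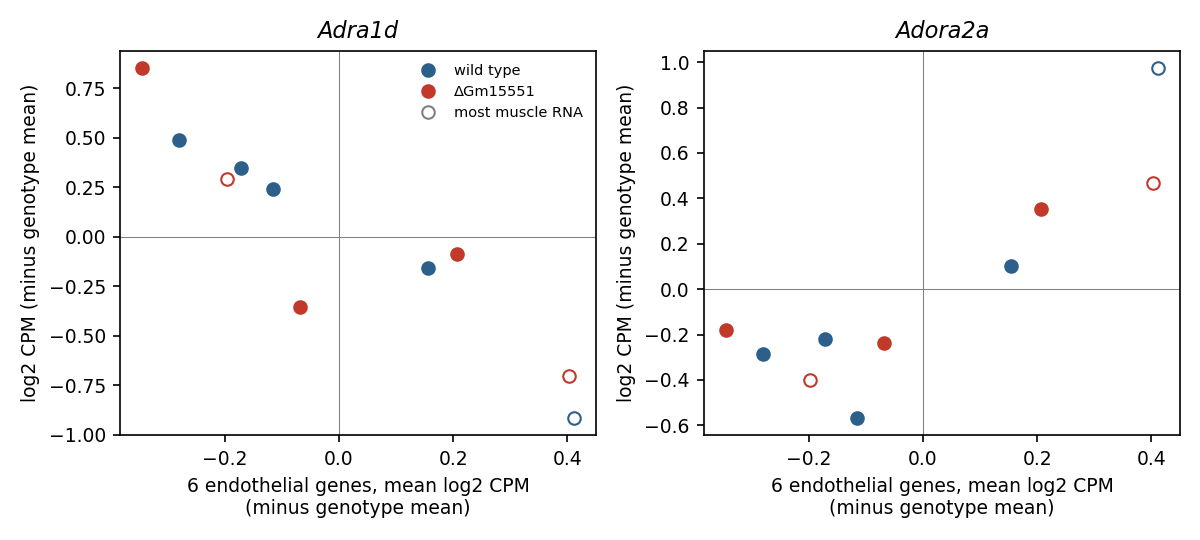
Log2 CPM of Adra1d and of Adora2a (y axes) against the mean log2 CPM of 6 endothelial genes (x axes), each minus its genotype mean, with 1 point per mouse and open circles for the 3 mice richest in muscle RNA. The points run downwards for Adra1d (r = -0.92) and upwards for Adora2a (r = 0.87, not past the adjusted threshold), with 2 muscle-rich mice at the right end. With 13087 single genes, the 5th to 95th percentile of r was -0.82 to 0.85 for Adra1d and -0.90 to 0.87 for Adora2a.

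The genes whose pattern across mice was most like that of Adrb3, among 13087 genes averaging 1 CPM or more, were B430212C06Rik (r = 0.94), Gm38560 (0.93), Arfgap2 (0.92), Ptger3 (0.91) and Map3k9 (0.90), over 10 mice centred on genotype. Among the 5 most like Gpr3 were Uvrag (0.97), Uhrf1bp1 (0.92), Pacs1 (0.92) and Ap4b1 (0.92). The highest r of so many genes over 10 mice are high by selection, and Gpr3 rests on 5 to 24 counts, so these names are a description only.

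The machinery around the receptors was read from 8 gene lists of 96 symbols. Of these, 94 matched a gene record and 65 could be tested. Adrbk1 and Adrbk2, listed beside Grk2 and Grk3, had no record of their own. At an adjusted p under 0.05, 0 of the 65 rose and 0 fell (edgeR, against 0.00% of all genes), and 1 had an unadjusted p under 0.05, which is 1.54% of them beside 1.59% of all genes. That gene was Ada, the adenosine deaminase, with a mean of 0.758 CPM ± 0.289 (SD) over the ΔGm15551 mice and 1.26 CPM ± 0.323 (SD) over their littermates (log2 fold change -0.72, edgeR unadjusted p = 0.0436, adjusted p = 0.99974, 5 to 20 counts per library). Their median log2 fold change was -0.00, and the single values ran from -0.72 to 0.51.

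Among other receptors of the same families, 4 of 11 were testable. The smallest p among them was that of Adra2b (log2 fold change -0.45, SE 0.43). Of other Gs-coupled receptors 5 of 9 were testable. Gipr, the receptor of the incretin GIP, had the most counts over the 10 mice together at 4.75 to 13.5 CPM, although Tshr, the thyrotropin receptor, had the higher mean in ΔGm15551 mice (8.81 against 7.37 CPM), and Ptger4, a prostaglandin E2 receptor, had the smallest p (0.26, SE 0.17). Of other Gi-coupled receptors 6 of 7 were testable, led by S1pr1, the sphingosine 1-phosphate receptor, at 74 to 153 CPM. Ptger3, another prostaglandin E2 receptor, had the smallest p of that list, with a log2 fold change of -0.27 (SE 0.21).

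Of the G protein subunits 20 of 27 were testable, and Gnas, which encodes the Gs α subunit, was the most abundant at 2665 to 4342 CPM (log2 fold change 0.08, SE 0.15). Gng10 had the smallest p of that list (-0.19, SE 0.13). All 9 receptor kinases and arrestins in the table were testable, with Grk3, a kinase that desensitises β-adrenoceptors, at 125 to 160 CPM and Grk5 with the smallest p (0.32, SE 0.17). Of the RGS proteins, which switch G proteins off, 10 of 16 were testable, with Rgs5 (223 CPM ± 37.4 in ΔGm15551, 232 CPM ± 34.2 in wild type mice) the most abundant and Rgs4 with the smallest p (0.14, SE 0.12).

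For adenosine, all 6 genes of supply and clearance were testable, and Slc29a1, a nucleoside transporter, was the most abundant at 110 to 211 CPM. For noradrenaline, 5 of 9 genes were testable, and Slc18a2, the vesicular monoamine transporter, had the smallest p (-0.20, SE 0.20). The genes of noradrenaline synthesis had few or no counts in any library, with at most 2 for Th, 5 for Ddc and 0 for Dbh.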

How the data were processed

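The authors isolated iBAT RNA, built poly A paired-end libraries with the NEBNext Ultra II kit and ran cutadapt for read filtering and Salmon for quantification against GENCODE transcripts (build GRCm38). The deposited values are estimated counts per gene, 1 column per mouse for 10 columns, and 0 columns were left unmapped. Here these values were used as deposited. Genes were kept by filterByExpr (minimum count 10, minimum total count 15), scaled by TMM and compared with edgeR 4.0.16 in R 4.3.3 (quasi-likelihood test, robust, genotype as the only term, Benjamini-Hochberg adjustment). Gm15551 fell under the filter and was not tested. P-values measure the spread between these mice.

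The members and gene lists were chosen with earlier results of these data known. Named are all members, Gm15551, the most abundant gene and the gene with the smallest p of each pathway list, and the 5 genes most like Adrb3 and Gpr3. A few genes that this rule names are not reported here. Gene lengths came from GENCODE M21, where 99.5% of the records were found. Relations across mice used log2 CPM with a prior count of 2. The scripts were tested on simulated data. Libraries shared by replicate number did not deviate together (r of -0.0653, 0.0537 and -0.395), so the numbers were not treated as pairs. No 2 libraries of a group agreed within sampling noise. Alternatives included other size factors, filters, tests, lengths and leaving out mice. Poisson intervals and floors cover counting error only, whereas intervals of log2 fold changes include the spread between mice.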

Additional observations from a re-analysis of the deposited data

Results flagged for a closer look

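The level of Adora1 in ΔGm15551 replicate 1, 61.6 CPM, lay far from those of the other 4 ΔGm15551 mice, which ran from 99 to 113 CPM. Its gap to the nearest of them was 0.729 of the range of the group, above the critical value of 0.71 for 5 samples. It was the 1 outlier in 18 groups searched (9 genes in 2 genotypes), where chance gives about 1 in 20. The same mouse had 727 CPM of skeletal muscle genes and the highest sum of endothelial genes, 1370 CPM, and the part of either in its Adora1 level was not tested.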

How the results depend on the processing

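With edgeR, 0 genes were called between genotypes under the main settings, and 0 were called under each of the 20 alternatives, with DESeq2's Wald test and limma-voom among them. Genes with an unadjusted p under 0.05 numbered 219 with edgeR, 228 with DESeq2 and 237 with limma-voom, and 418 without ΔGm15551 replicate 1 and 404 without wild type replicate 7. Without a filter on low counts 869 of 30984 genes had such a p. Without the 3 muscle-rich mice, an alternative chosen after seeing the data, there were 562. With the replicate block in the 6 mice that share a number, 0 genes were called and 397 had an unadjusted p under 0.05, beside 552 in the same 6 mice without the block. The number of neighbouring members that differed was 4 in all but 1 setting, and 6 with the coding sequence as length, which is within 1.5 times the main count. The members were put in order anew in each setting. With another length the neighbours were partly other pairs, so an equal count does not mean the same steps. The difference of Ffar4 and Adrb3 changed sign with the longest coding transcript (-0.24), with the coding sequence (-1.08), and, within a range of -0.02 to 0.10 over the mice left out, without ΔGm15551 replicate 1 (-0.02), ΔGm15551 replicate 7 (-0.01) or wild type replicate 2 (-0.00). That of Adora2a and Adra1a changed sign with the longest coding transcript (-0.46) and the coding sequence (-0.99), as the lengths enter the level directly. No pair of members was called under any of 17 alternatives. Over all alternatives the log2 fold change lay between 0.43 and 0.57 for Adrb3, 0.14 and 0.40 for Ffar4, -0.76 and -0.15 for Gpr3, and 0.01 and 0.31 for Adra1a. It took both signs for Adra1d (-0.10 to 0.54), Adora2a (-0.08 to 0.56), Adrb1 (-0.21 to 0.12) and Adora1 (-0.17 to 0.09). Depth limits Gpr3 (5 to 24 counts) and Adra2a (0 to 6 counts).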
